A study of Homo sapiens with 15 samples.

Results

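TMPRSS2 encodes a serine protease of the cell surface and is a classical androgen-regulated gene of the luminal cells of the prostate. Enhancers, many of which lie far from the genes they regulate, meet their promoters through chromatin loops. In many prostate tumours the androgen-driven start of TMPRSS2 is fused to the ETS factor gene ERG, which places ERG under androgen-driven control; LNCaP does not carry this fusion. The contacts of this promoter were followed in LNCaP, an established prostate cancer cell line, which was kept for 3 days in medium with charcoal-stripped serum and then stimulated with the androgen dihydrotestosterone (DHT, 10 nM) for 30 m or for 4, 16 or 72 h, or given ethanol alone (0 m). The method was HiChIP: neighbouring DNA ends are ligated inside fixed nuclei, an antibody against a histone mark enriches the ligated fragments that bear it, and these are sequenced as read pairs. The marks were H3K27ac, found at active enhancers and promoters, and H3K4me3, found mainly at active promoters.

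The TMPRSS2 promoter was taken as the 5 kb centred on the start of the canonical transcript (ENST00000332149 of ENSG00000184012), which lies at base 42880085 of chromosome 21 in hg19 and is read from the minus strand. Of 505995 different loops in the series, 56 had a 1 kb anchor in this window. The H3K27ac loop set held 14 of them and the H3K4me3 set 49, with 7 in both. The series comprised 15 samples, 2 replicates per time point for H3K27ac and 1 for H3K4me3, but for each loop the tables give 1 contact value per mark and time point, and whether both H3K27ac replicates entered it is not stated. No contact therefore has a replicate error and no test between time points was possible. Contact is given as the deposited signal, in which 1 read pair was worth 0.0792 to 0.342 depending on the library, with a 95% interval from the recovered read pairs that covers counting error only. Between 2153262 and 10675614 read pairs lay on the loops of a library, the highest number in the H3K4me3 library of 4 h. Of the luminal markers, all 7 (KLK3, KLK2, FOXA1, HOXB13, KRT8, KRT18 and FOLH1) had loops on their promoters, whereas the basal markers KRT5, KRT14 and TP63 had 0.

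All 56 loops shared 1 anchor, at chr21:42877001-42878000, the middle of a 5 kb bin that runs from 42875001 to 42880000. Since the gene runs towards lower coordinates, this bin begins 85 bp into the gene and lies wholly in the long first intron, which spans 9891 bp between exons 1 and 2. The next bin, from 42880001 to 42885000, holds the start site itself and anchored 0 loops of either set. Chromatin was cut with MboI, whose site is GATC, before the ends were joined, so the site nearest the middle of the bin is shown for the 3 partners among the 4 strongest of both marks, with GATC in capitals.
Partner 7.6 kb downstream, chr21:42872639-42872712, plus strand: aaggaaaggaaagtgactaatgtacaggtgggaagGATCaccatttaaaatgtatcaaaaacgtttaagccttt
Partner 12.4 kb upstream, chr21:42892109-42892182, plus strand: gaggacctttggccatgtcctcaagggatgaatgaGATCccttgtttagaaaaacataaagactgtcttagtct
Partner 72.4 kb upstream, chr21:42952515-42952588, plus strand: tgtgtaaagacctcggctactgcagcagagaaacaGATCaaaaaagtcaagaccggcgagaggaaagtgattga

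The promoter bin held 16 GATC sites, against a median of 14 among 209965 bins that anchor loops anywhere in the genome, and the bins of the 11 partners that were among the 8 strongest of a mark or past a 2-fold change held 10 to 18. The number of places at which these bins could be cut was thus an ordinary one. The forkhead motif TGTTTAC, searched on both strands, was present in the promoter bin and in 3 of these 11 partner bins, those 72.4, 307.4 and 322.4 kb upstream, against 53.2% of all bins. A match says nothing on whether a protein is bound there.

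Contact of the promoter, summed over its 56 loops, was followed across the treatment in both marks. In H3K4me3 HiChIP the summed contact was 84.9 (95% interval 75.6 to 95) at 0 m, 84.7 (74.5 to 95.9) at 30 m, 93.1 (87.8 to 98.6) at 4 h, 258.6 (245.0 to 272.9) at 16 h and 98.9 (89.0 to 109.7) at 72 h. The 16 h value stood apart, and the intervals of the other 4 time points overlapped. Against 0 m the log2 change at 16 h was 1.61 (1.43 to 1.79), a 3.05-fold higher contact, which rests on 1 library. From 16 h to 72 h the contact fell by 1.39 on the log2 scale (interval -1.56 to -1.22), and at 72 h it was 0.22 above 0 m (-0.0038 to 0.45).

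In H3K27ac HiChIP the same loops summed to 106.1 (95.4 to 117.6) at 0 m, 113.2 (104.5 to 122.4) at 30 m, 134.2 (123.9 to 145.1) at 4 h, 102.3 (93.4 to 111.9) at 16 h and 99.2 (89.4 to 109.7) at 72 h. The highest value came at 4 h, earlier than in H3K4me3, with a log2 change of 0.34 (0.15 to 0.53). Without the strongest loop this change was 0.23 (-0.0062 to 0.46), and over loops of at least 20 kb it was 0.095 (-0.16 to 0.35), so that both intervals included no change. At 16 h, where H3K4me3 contact was highest, the H3K27ac contact differed from 0 m by -0.05 (-0.25 to 0.15). Contact summed over all loops of the series was 0.25 higher in H3K27ac at 16 h and 0.14 higher in H3K4me3, so the H3K27ac value lay below the general shift and the H3K4me3 value far above it.

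**Figure D1:**
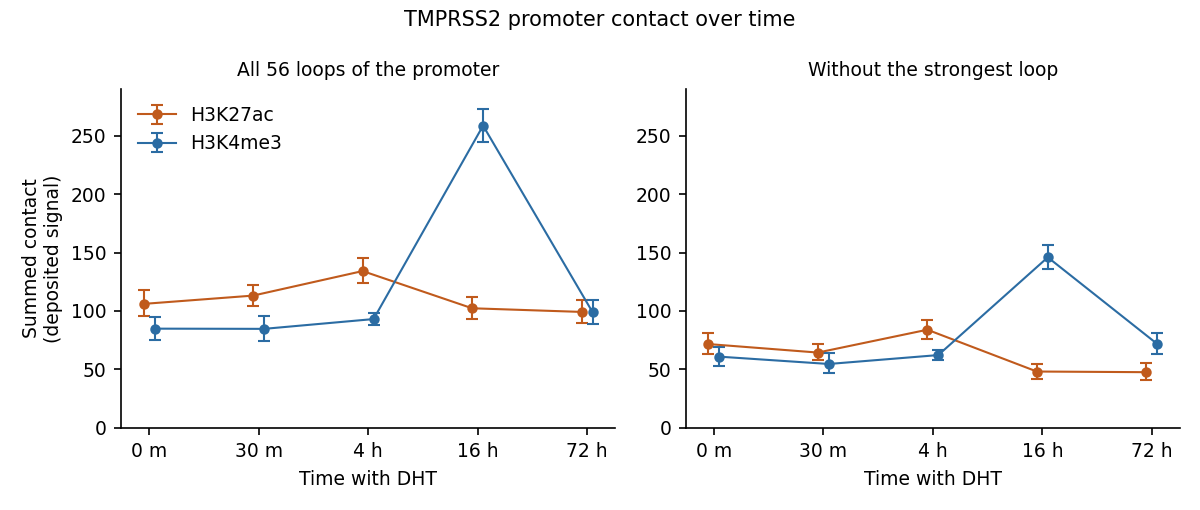
Summed contact of the TMPRSS2 promoter (deposited signal) at each time with DHT in the 2 marks, over all 56 loops (left) and without the strongest loop (right). Points are single deposited values and bars are 95% counting intervals; H3K4me3 contact rose to 258.6 at 16 h, and H3K27ac contact peaked at 134.2 at 4 h.

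The 16 h rise in H3K4me3 was seen in each class of loop length, upstream of the start and within the gene, and was not resolved beyond the gene's far end. The 41 loops to partners upstream of the start changed by 1.34 (1.08 to 1.60) on the log2 scale and the 15 loops to partners downstream by 1.86 (1.60 to 2.14). The downstream value rested largely on the loop of 5 kb, without which the other 14 went from 15.5 to 31.1, a change of 1.0 (0.55 to 1.47). Of these, the 12 that ended beyond the gene went from 8.74 to 13.0 on 31 and 67 read pairs, and their change of 0.57 (-0.068 to 1.23) was within counting error. Split by length, the loop of 5 kb changed by 2.23 (1.90 to 2.58), the 9 loops of over 10 kb to 100 kb by 1.28 (0.95 to 1.63) and the 46 loops of over 100 kb by 1.24 (0.95 to 1.55). In the classes of 10 kb or less, over 10 kb to 100 kb and over 100 kb, all loops of the series changed by 0.22, 0.03 and 0.16. Of the 56 loops, 51 had a higher H3K4me3 contact at 16 h than at 0 m and 5 a lower contact, whereas 51.5% of all loops were higher. For H3K27ac at 16 h, 16 of the 56 were higher and 39 lower, where 42.7% of all loops were higher. Loops were called on reads merged over the times of a mark, so that reads of 16 h could help a loop to be called. The promoter had 301 H3K4me3 read pairs at 0 m and 1338 at 16 h, with a median of 2 and 7 per loop. These counts of loops therefore describe the loops without testing them.

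The rise was smaller in the neighbourhood of the promoter. A group of 38 loops that lay within 100 kb of the start but did not touch the promoter had an H3K4me3 contact of 28.5 at 0 m and 37.1 at 16 h, a log2 change of 0.38 (0.03 to 0.74). The 867 other loops in the region spanned by the promoter's loops changed by 0.11 (0.04 to 0.19). In H3K27ac the near group rose earlier, from 129.0 at 0 m to 195.7 at 4 h, a log2 change of 0.60 (0.44 to 0.77). HiChIP signal depends on how much of the mark an anchor carries as well as on how often the anchors meet, and from these tables the 2 cannot be told apart.

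**Figure D2:**
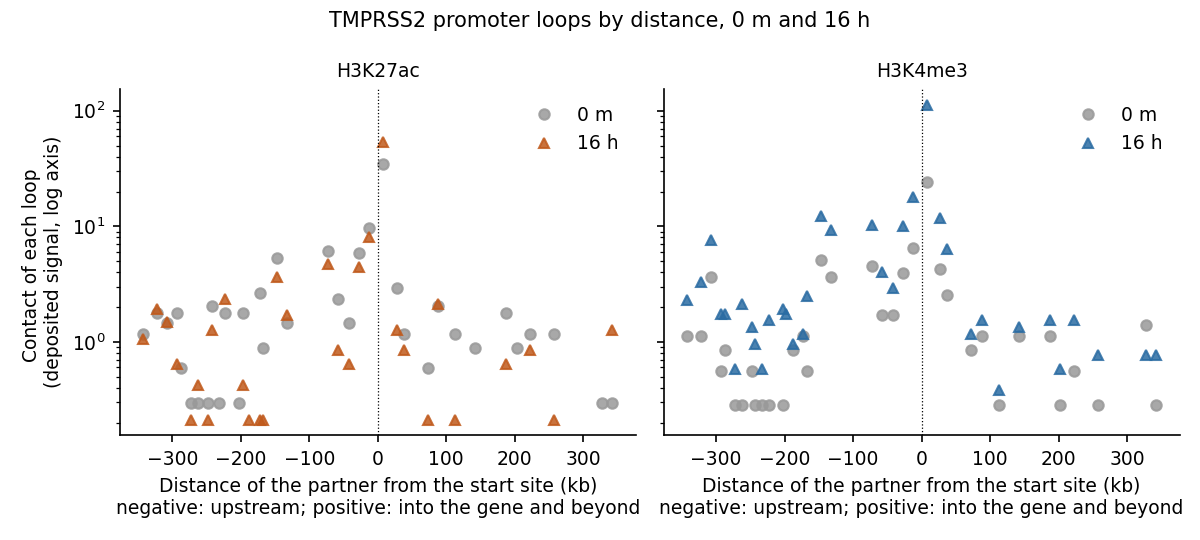
Contact of each loop of the TMPRSS2 promoter (log axis, deposited signal) against the distance of its partner from the start site in kb, up to 350 kb, at 0 m and 16 h; loops with no read pair are not drawn. In H3K4me3 the 16 h values lie above the 0 m values near and far, except at 327.6 kb downstream (1.41 at 0 m and 0.773 at 16 h), whereas in H3K27ac most lie at or below them, with the partner 7.6 kb downstream above.

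Among single loops, the strongest in both marks joined the promoter bin to its direct neighbour, with both anchors in the first intron and the partner centred 7.6 kb downstream of the start (anchor 42872001 to 42873000). Its H3K4me3 contact was 24.0 before DHT, 30.1 after 30 m, 30.8 after 4 h, 112.7 after 16 h and 27.2 after 72 h. The value at 16 h was above all others, with 583 read pairs against 85 at 0 m. Its H3K27ac contact was 34.4, 48.8, 50.2, 54.1 and 51.6 at the same time points. These stayed above 0 m from 30 m on, with a log2 change of 0.66 (0.33 to 0.98) at 16 h, whereas all 28409 loops of 5 kb in the series rose by 0.69 at that time. At 16 h the H3K27ac change of this loop was thus no larger than that of adjacent bins in general, while its H3K4me3 change of 2.23 compares with 0.26 for them. At 30 m, 4 h and 72 h its H3K27ac changes were 0.50 (0.19 to 0.83), 0.55 (0.22 to 0.88) and 0.59 (0.25 to 0.93), and the values for all loops of 5 kb, 0.29, 0.26 and 0.50, lay within these intervals.

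This loop weighed heavily on the sum. It held 32.4% (exact binomial 95% interval 27.6 to 37.5) of the promoter's H3K27ac read pairs at 0 m and 52.9% (48.3 to 57.4) at 16 h. In H3K4me3 it held 28.2% (23.2 to 33.7) at 0 m and 43.6% (40.9 to 46.3) at 16 h. Without it, H3K27ac contact was 71.7 before DHT, 64.4 after 30 m, 84.0 after 4 h, 48.2 after 16 h and 47.6 after 72 h, so that the 2 late values were below 0 m by a log2 change of -0.57 (-0.84 to -0.31) and -0.59 (-0.88 to -0.31). The late H3K27ac sums therefore joined a higher contact with the neighbouring bin to a lower contact with the more distant partners. Part of this split was general to H3K27ac at 16 h, where all loops of 10 kb or less changed by 0.60. All loops of over 10 kb to 100 kb changed by 0.06 and those of over 100 kb by -0.10. The promoter's own loops in these 2 longer classes changed by -0.48 (-0.88 to -0.087) and -0.65 (-1.02 to -0.28). On the deposited scale the late H3K27ac sums were within counting error of 0 m. Scaled to equal totals they were lower, by a log2 change of -0.30 (-0.50 to -0.098) at 16 h and -0.27 (-0.48 to -0.056) at 72 h. H3K4me3 contact without this loop was 60.9 at 0 m and 145.9 at 16 h, a log2 change of 1.26 (1.04 to 1.49).

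The second strongest loop in both marks led to a partner 12.4 kb upstream of the canonical start (anchor 42892001 to 42893000), in the gene body of TMPRSS2 when the longest isoforms are counted. Its H3K27ac contact was 9.70 before DHT, 12.6 after 30 m, 17.7 after 4 h, 8.07 after 16 h and 6.05 after 72 h. The contact rose up to 4 h, by a log2 change of 0.87 (0.27 to 1.5), and was back at or under the 0 m value afterwards. In H3K4me3 it was 6.49, 7.17, 7.76, 17.8 and 6.87 over the same times, with the highest value at 16 h (log2 change 1.46, 0.78 to 2.18). The peak of contact with this upstream region thus fell at 4 h in H3K27ac and at 16 h in H3K4me3.

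The partner 72.4 kb upstream (anchor 42952001 to 42953000, intergenic) had an H3K27ac contact of 6.17 before DHT, 3.42 after 30 m, 9.61 after 4 h, 4.67 after 16 h and 2.89 after 72 h. The same loop had an H3K4me3 contact of 4.51, 3.07, 4.67, 10.2 and 6.60. It was highest at the same times as the nearer one, but the H3K27ac change at 4 h of 0.64 had an interval of -0.14 to 1.46, which includes no change, and the H3K4me3 change at 16 h was 1.18 (0.35 to 2.09).

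Other partners followed the same course in H3K4me3. The loop to the bin 147.4 kb upstream had an H3K4me3 contact of 5.08 before DHT, 4.44 after 30 m, 4.75 after 4 h, 12.2 after 16 h and 4.95 after 72 h. Within the gene, the partner 27.6 kb downstream, at exon 6, had 4.23, 3.42, 2.61, 11.8 and 5.77. The partner 27.4 kb upstream had 3.95, 1.71, 3.41, 10.1 and 4.95. In each the 16 h value was the highest of the 5, by a log2 change from 0 m of 1.26, 1.48 and 1.35. Their H3K27ac contact at 16 h was within counting error of 0 m, with log2 changes of -0.55 (-1.60 to 0.49), -1.21 (-2.95 to 0.40) and -0.40 (-1.35 to 0.56).

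**Figure D3:**
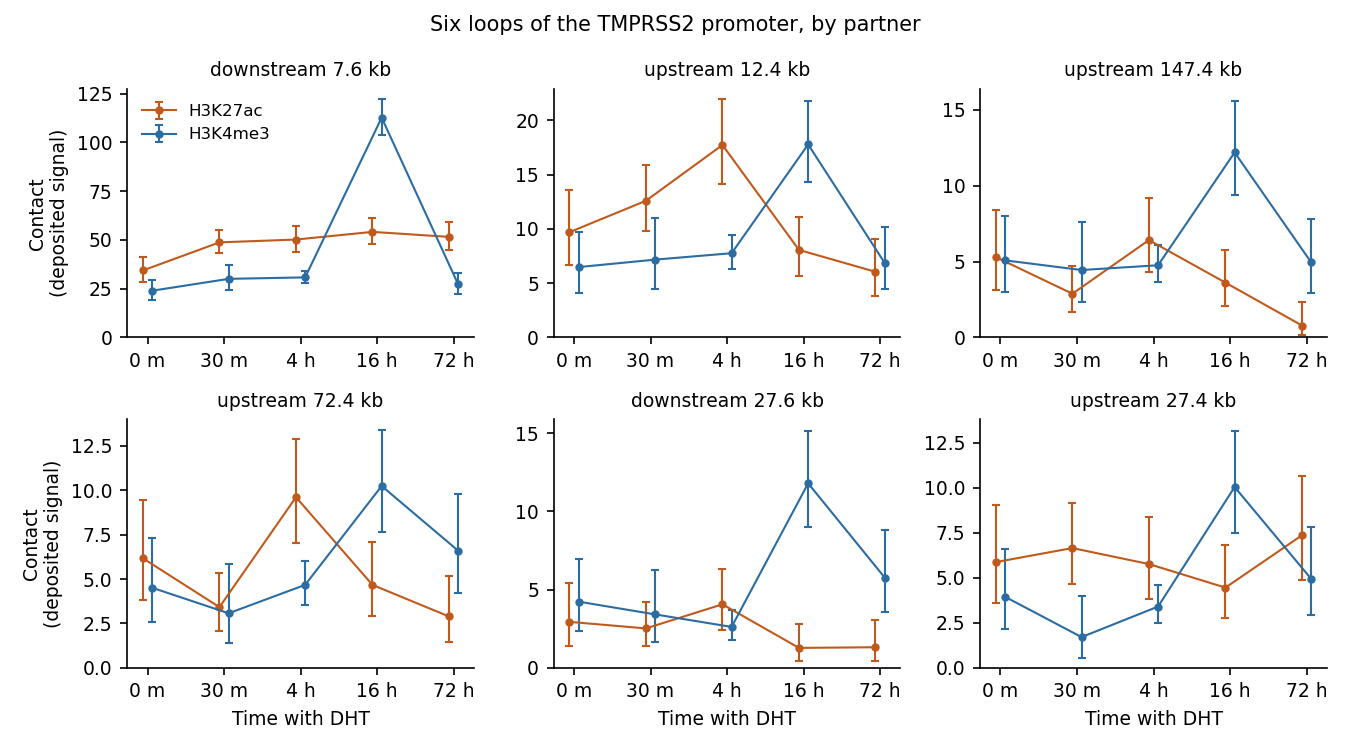
Contact (deposited signal) of 6 loops of the TMPRSS2 promoter, named by the distance of their partner from the start site, at each time with DHT in H3K27ac and H3K4me3; bars are 95% counting intervals and each panel has its own axis from 0. H3K4me3 contact is highest at 16 h in all 6 panels, and H3K27ac contact of the partner 12.4 kb upstream is highest at 4 h.

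Counted loop by loop, at least a 2-fold change was looked for in loops with 20 or more read pairs over 0 m and the later time point. At 16 h in H3K4me3, 12 of the 56 loops had enough read pairs, 11 of them were at least 2-fold higher, against 6.5% of all loops measured, and 0 were 2-fold lower, against 2.21%. Only 2 of the 12 had 20 read pairs at 0 m alone, so that 10 entered through their 16 h value and the count describes these loops without testing them. All 12 lay above 0 m, with a median log2 change of 1.33 against 0.11 for all loops, and the lowest was the partner 42.4 kb upstream, which went from 1.69 to 2.90. In H3K27ac at 16 h, 5 loops were measured, with 0 higher (background 18.3%) and 0 lower (5.9%).

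The other times gave few such loops. At 4 h in H3K27ac, 8 loops were measured and 1 was 2-fold higher (background 7.02%), while 0 were lower (3.02%). The higher one was the partner 132.4 kb upstream, whose contact went from 1.47 to 4.49 on 5 and 21 read pairs. This loop and others, 4 of the 8, had under 20 read pairs at 0 m and needed their 4 h value to be measured. At 72 h in H3K27ac, 5 were measured, 0 were higher (15.4%) and 2 lower (6.61%). These 2 were the partner 147.4 kb upstream, from 5.29 at 0 m to 0.789 at 72 h, and the partner 72.4 kb upstream. The first had 18 and 3 read pairs and a log2 change of -2.74 (-5.15 to -0.97). The second had 21 and 11, and its change of -1.09 (-2.29 to 0.025) included no change. At 30 m in H3K27ac, 0 of 6 were higher (10.7%) or lower (6.02%). In H3K4me3, 0 of 7 were higher (3.15%) or lower (3.79%) at 30 m. At 4 h, 0 of 12 were higher (15.2%) and 1 was lower (3.36%), the partner 37.6 kb downstream at exon 11, from 2.54 to 1.03. It had 9 and 13 read pairs, and its log2 change of -1.30 (-2.64 to 0.11) included no change. Under 20 read pairs at 0 m were found in 10 of these 12 loops. At 72 h, 0 of 9 were higher (2.4%) or lower (5.86%).

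The partner bins differed in how much of their contact went to the TMPRSS2 promoter. The bin 7.6 kb downstream gave it 45.5% (39.3 to 51.8) of its H3K27ac read pairs at 0 m and 58.0% (53.2 to 62.6) at 16 h. The bin 307.4 kb upstream gave it 2.92% (0.956 to 6.69) at 0 m. Of the H3K27ac read pairs on all 16 loops of the bin 12.4 kb upstream, 21.4% (15.2 to 28.8) went to the promoter at 0 m, 29.0% (23.4 to 35.2) at 30 m, 19.1% (15.5 to 23.1) at 4 h, 14.7% (10.6 to 19.7) at 16 h and 20.4% (13.4 to 29.0) at 72 h. Its strongest H3K27ac loop, with a mean contact of 26.4 against 10.8 for the promoter, ran to the bin next to it. Its other loops rose as the promoter loop did at 4 h, by a log2 change of 1.08 (0.78 to 1.39), so the rise at 4 h was not confined to the contact with the promoter. In H3K4me3 the share that went to the promoter was 54.8% (38.7 to 70.2) at 0 m, 65.6% (46.8 to 81.4) at 30 m, 69.0% (60.7 to 76.5) at 4 h, 70.2% (61.6 to 77.9) at 16 h and 67.6% (50.2 to 82.0) at 72 h, with all 5 intervals overlapping. The other H3K4me3 loops of this bin changed by 0.49 (-0.33 to 1.37) at 16 h, and those of the bin 7.6 kb downstream by 1.28 (0.61 to 2.0). Those of the bins 27.6 kb downstream and 307.4 kb upstream changed by 1.20 (0.32 to 2.18) and 0.38 (0.17 to 0.60). For the remaining bins of the 11 partners the intervals included no change.

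Promoters of other genes were the partner in 7 loops, those of RIPK4, BACE2, PRDM15, C2CD2, ZBTB21, RSPH1 and NDUFV3. The promoter of RIPK4, a protein kinase of epithelial cells, gave the strongest of them, 307.4 kb upstream, with an H3K4me3 contact of 3.67 before DHT, 4.78 after 30 m, 5.31 after 4 h, 7.54 after 16 h and 1.92 after 72 h. This was again highest at 16 h, with a log2 change of 1.04 (0.10 to 2.07). The other 6 had mean contacts of 0.260 to 0.787 in H3K4me3, where 3 read pairs give 0.238 to 1.02 depending on the library. The highest of these means was that of PRDM15, with 15 read pairs at 4 h and 7 at 16 h.

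ERG lies on the same chromosome, with its start 3009.68 kb from that of TMPRSS2, beyond the 3 Mb over which loops were called. The promoter of ERG had 1 loop, and 0 of the 56 loops ended in the ERG gene or its promoter, the longest reaching 1435 kb. TMPRSS2 also has an alternative start 22.958 kb upstream (ENST00000454499), while 11 of its 13 coding transcripts start in the window used. The alternative start had 7 loops in a window of the same width, of which 0 led to the canonical promoter. Their H3K27ac contact was 28.8 at 0 m and 48.9 at 4 h, a log2 change of 0.76 (0.42 to 1.12), and their H3K4me3 contact was 5.08 at 0 m and 6.77 at 16 h, a change of 0.41 (-0.44 to 1.32). The alternative start thus carried little H3K4me3 contact throughout and lacked a 16 h rise of the size seen at the canonical one.

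Set against other genes, the H3K4me3 contact of TMPRSS2 at 16 h ranked at the top. Among 2078 coding promoters with at least 200 read pairs in each of the 10 tables it was the only one at least 2-fold higher (0.0481%), where the median log2 change was 0.09 and the 95th percentile 0.40. In H3K27ac at 16 h, 3.95% of these promoters were 2-fold higher, and TMPRSS2 exceeded only 15.7% of them. At 4 h in H3K27ac it exceeded 97.3%, and at 72 h in H3K4me3 97.9%, although there its own interval included no change as deposited and lay above it, at 0.35 (0.12 to 0.57), when scaled to equal totals. These ranks depended on the minimum of read pairs. With at least 20 per table, a minimum added after the data were seen, 15 of 11084 promoters (0.135%) were 2-fold higher and TMPRSS2 was second to SNAI2, the gene of an epithelial-mesenchymal transition factor, whose contact rose from 8.74 to 30.5 on 31 and 158 read pairs. Under that minimum TMPRSS2 exceeded 34.3% of the promoters in H3K27ac at 16 h, 88.6% in H3K27ac at 4 h and 92.2% in H3K4me3 at 72 h.

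The promoters of 12 androgen-regulated genes were listed for comparison, of which 10 had at least 20 read pairs in every table. In H3K4me3 at 16 h, 9 of the 10 had an interval above 0 m and 3 were at least 2-fold higher, with a median log2 change of 0.78. The 3 were KLK3, which encodes prostate-specific antigen, with 1.58 (1.34 to 1.83), KLK2, its neighbour and a related kallikrein, with 1.45 (0.97 to 1.95), and SLC45A3, a prostate transporter gene, with 1.15 (0.85 to 1.46). The intervals of all 3 overlapped that of TMPRSS2. FKBP5, a co-chaperone gene, had 0.06 (-0.24 to 0.37). The remaining listed genes with enough read pairs, KLK4, UAP1, ABCC4, CAMKK2, ELL2 and PMEPA1, lay between 0.49 and 0.84. At 4 h all 10 listed promoters had a higher H3K4me3 change than the 0.13 of TMPRSS2, with a median of 0.46. An interval above 0 m was held by 8 of them, while that of TMPRSS2 included no change. Over the 11084 promoters with at least 20 read pairs per table the median change at 4 h was 0.24, and TMPRSS2 exceeded 36.0% of them. At 30 m and 72 h, 7 and 1 of the 10 had a higher change than TMPRSS2, with medians of 0.082 and -0.064.

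In H3K27ac the listed genes were all above TMPRSS2 at 16 h, 7 of them beyond counting error, and lay on both sides of it at the other times. At 16 h the 10 listed promoters had a higher change than TMPRSS2, from 0.23 to 0.92, and 9 of them had an interval above 0 m. The median change was 0.15 among the 11084 promoters with at least 20 read pairs per table and 0.32 among the 2078 with at least 200. TMPRSS2 itself exceeded 34.3% and 15.7% of these. The intervals of SLC45A3, KLK4 and PMEPA1 overlapped that of TMPRSS2. At 4 h, KLK2 and KLK3 were at 1.08 (0.86 to 1.31) and 1.04 (0.89 to 1.19), above the 0.34 of TMPRSS2, whose value was exceeded by 5 of the 10. At 30 m, 8 of the 10 had a higher change than TMPRSS2, with a median of 0.19. At 72 h, 5 of the 10 were above TMPRSS2, with a median of -0.039 against its -0.097, and 4 had an interval below 0 m and 2 an interval above it. The 4 were KLK3 at -0.79 (-1.0 to -0.59), SLC45A3 at -0.49 (-0.81 to -0.16), KLK4 at -0.35 (-0.61 to -0.091) and KLK2 at -0.35 (-0.63 to -0.062). The 2 were FKBP5 at 0.70 (0.29 to 1.1) and ABCC4 at 0.32 (0.020 to 0.62). Among the 11084 and the 2078 promoters the medians at 72 h were 0.17 and 0.29, both within the interval of ABCC4. HPGD and STEAP4, with 5 and 2 loops, had too few read pairs to be compared.

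**Figure D4:**
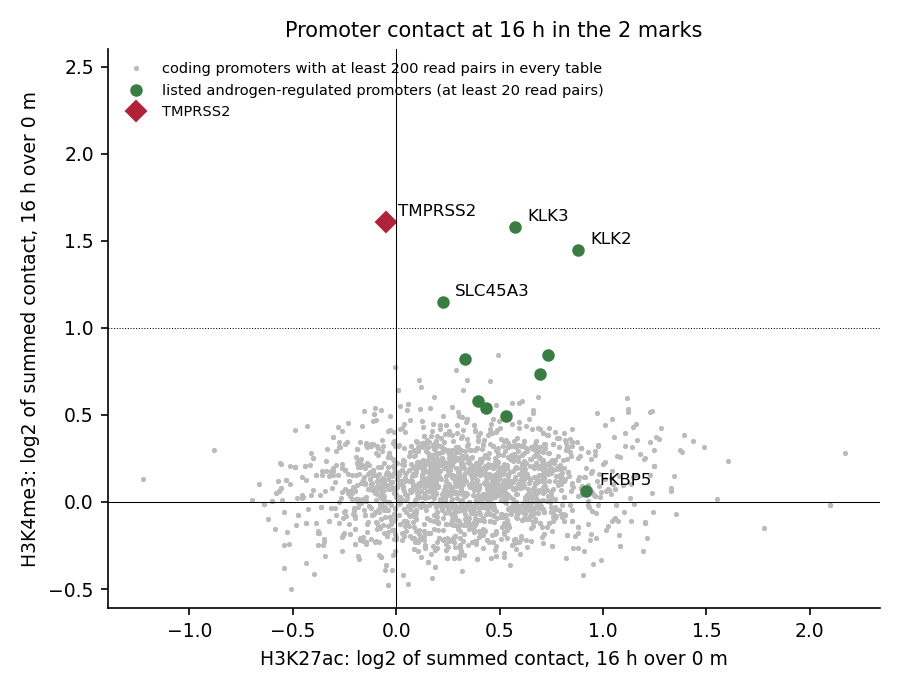
Log2 change of summed promoter contact from 0 m to 16 h in H3K27ac (horizontal) and H3K4me3 (vertical) for 2078 coding promoters (grey), 10 listed androgen-regulated promoters (green) and TMPRSS2 (red diamond); the dotted line marks a 2-fold rise in H3K4me3. TMPRSS2 sits at 1.61 and -0.05, with KLK3 and KLK2 at a similar height but further right.

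By Euclidean distance over the 8 log2 changes from 0 m, the promoters most like TMPRSS2 among the 2078 were those of RPS6, KLK4, DEGS1, LAD1 and RPS10, at distances of 1.07 to 1.15. The largest H3K4me3 change at 16 h among these 5 was 0.82, that of KLK4, so none came near the 1.61 of TMPRSS2. With 56 loops, TMPRSS2 had more than 88.9% of the 16260 coding promoters with a loop, counted once per gene symbol, for which the median was 20.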

How the data were processed

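Values were taken from 10 deposited tables, 1 per mark and time point, each listing the same 574817 anchor pairs (296326 H3K27ac loops, then 278491 H3K4me3 loops). The authors trimmed reads with Trim Galore 0.5.0, aligned them to hg19 with HiC-Pro 3.1.0, called loops with FitHiChIP in 5 kb bins after merging the times of each mark, and deposited a contact signal with TMM scaling between those times. Anchors are the middle 1 kb of a bin. Each value (100%) was a whole multiple of its table's smallest step (tolerance 1e-06), taken as 1 read pair, which gave the read pairs. The deposited signal is not a count, and with 1 value per condition no count test was run.

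Loops were counted once per anchor pair. Promoters are the starts of canonical coding transcripts in Gencode release 44 lifted to GRCh37, with an overlap of at least 1 bp. Intervals are exact at 95% (Poisson for levels, conditional binomial for ratios, Clopper-Pearson for shares). Read pairs are not all independent molecules, and intervals cover counting error only. The script was tested on simulated data. Named were the 8 strongest loops per mark and those past 2-fold, the genes on partner anchors, 12 androgen-regulated genes, ERG and the 5 nearest promoters. Some items of the study are not reported here. The members and lists were chosen with earlier results of these data known. Alternatives varied the scaling, loop length, strongest loop, anchor overlap and minimum of read pairs. Computations used scipy 1.17.1 and numpy 2.4.6 under Python 3.11.15.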

Additional observations from a re-analysis of the deposited data

How the results depend on the processing

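Of 46 values under alternative settings, 28 stayed within the counting interval of the reported value or within 1.5 times a count, 18 moved and 0 reversed a change beyond counting error. The H3K4me3 change at 16 h kept its direction throughout, at 1.24 with only loops of at least 20 kb and 1.26 without the strongest loop. The H3K27ac changes moved further. With loops of at least 20 kb the changes by 30 m, 4 h, 16 h and 72 h were -0.26, 0.095, -0.63 and -0.58, and without the strongest loop those by 30 m, 16 h and 72 h were -0.15, -0.57 and -0.59. Scaled to equal totals, H3K27ac at 16 h was -0.30 (-0.50 to -0.098) and H3K4me3 at 4 h was -0.091. Under that scaling the 72 h changes, -0.27 (-0.48 to -0.056) in H3K27ac and 0.35 (0.12 to 0.57) in H3K4me3, had intervals that left out no change, which the deposited scale did not give. With at least 40 read pairs, 0 loops were 2-fold higher in H3K27ac at 4 h. Over all times the strongest loop held 43.1% of H3K27ac and 36.2% of H3K4me3 contact; this was 32.4% and 28.2% at 0 m, and the strongest loop of at least 20 kb held 11.5% and 8.98% of the contact of such loops. With at least 20 read pairs per promoter, TMPRSS2 ranked 2 in H3K4me3 at 16 h. The cause of these differences was not tested. No paired analysis was possible because the tables hold 1 value for each loop at each time. The 16 h rise rests on 1 H3K4me3 library, and most loops had few read pairs, with a median of 2 to 8 per H3K4me3 library.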
